A study of Homo sapiens with 54 samples.

Results

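The genes of 7SK RNA and of the U6-type small nuclear RNAs are short, noncoding genes transcribed by RNA polymerase III. The set held 7 members out of 59665 RefSeq genes on chromosomes 1 to 22, X and Y: RN7SK, RNU6-1, RNU6-2, RNU6-7, RNU6-8, RNU6-9 and RNU6ATAC. They were chosen by name and placed by their RefSeq spans. No measured value entered that rule, but the choice was made with earlier results of these data known. Each was searched for ChIP-seq regions within 200 bp and within 5 kb of its span. ChIP-seq sequences the DNA fragments that an antibody pulls down, and a region (peak) is a stretch where those fragments pile up above background.

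The cells were T47D, an established human breast cancer line labelled as positive for estrogen and progesterone receptors, grown with serum and insulin and given either ethanol as vehicle or the synthetic progestin R5020 for 1 h. No genetic change was named in the labels. Antibodies against 8 proteins or marks were used: POLR3A, POLR3C, POLR3G and POLR3GL (subunits of polymerase III), the initiation factor subunit Brf1, Maf1, which represses polymerase III, the progesterone receptor (PR), and histone H3 acetylated at lysine 27 (H3K27Ac, found at active promoters and enhancers). Each of the 16 pairs of antibody and treatment had 3 libraries and 1 peak list, so the values carry no error between replicates and no treatment difference was tested.

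The treatment tag contradicts the title for 4 libraries titled R5020: replicates 1 and 2 of POLR3C and replicate 1 of both POLR3G and POLR3GL are tagged ethanol. The treatment of those 3 antibodies was taken from the titles. List lengths ran from 370 regions (Brf1, vehicle) to 173129 (PR, R5020), and sequencing depth is unknown because the lists hold no read counts. H3K27Ac lay within 1 kb of the ends of 6 of 6 luminal breast marker genes in both treatments, PGR and GATA3 among them. It lay at 0 of 5 markers of other cell types with vehicle and at 2 of 5 with R5020, VIM with a fold of 2.43 and PECAM1 with a fold of 2.73.

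As background, 7SK RNA is the scaffold of a ribonucleoprotein that holds the transcription elongation kinase P-TEFb inactive. U6 RNA forms the catalytic centre of the spliceosome together with U2, and U6atac takes the same role in the minor spliceosome. Their genes have type 3 polymerase III promoters, in which the control elements lie upstream of the transcribed sequence: a distal element that often carries an octamer bound by Oct-1 (POU2F1), a proximal element bound by the SNAPc complex, and a TATA box. Such promoters use BRF2 in the initiation factor TFIIIB, whereas tRNA genes, whose promoters lie inside the gene, use BRF1.

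The positions below are those of RefSeq on GRCh38.p14. RN7SK is the longest member, 332 bp at chr6:52995620-52995951. The 5 U6 genes are 107 bp each: RNU6-1 at chr15:67839939-67840045, RNU6-2 at chr19:1021522-1021628, RNU6-7 at chr14:32202045-32202151, RNU6-8 at chr14:32203163-32203269 and RNU6-9 at chr19:893484-893590. RNU6ATAC spans 126 bp at chr9:134164439-134164564, inside the span of the long noncoding RNA gene LOC124902297. RNU6-7 and RNU6-8 are 1012 bp apart and therefore share regions within the 5 kb window. The 5 U6 genes are near-identical copies of one another, so reads could be split between them, and how reads that map to several places were treated is not given in the sources used here.

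Protein-coding genes begin next to 3 of the members. GSTA4, a glutathione transferase gene, lies 336 bp below RN7SK, TMEM259 lies 399 bp below RNU6-2, and MED16, a Mediator subunit gene, lies 297 bp below RNU6-9, all on the minus strand. "Below" and "above" refer here to lower and higher coordinates, since the gene table gave no strand for the members. The promoter windows of these 3 neighbours (250 bases before to 50 after the gene start, RefSeq, GRCh38.p14) are shown because they are the flanks over which regions of the members extend. The members themselves have no entry in the promoter table. The windows are chr6:52995235-52995534 (GSTA4), which ends 86 bp from RN7SK, chr19:1021074-1021373 (TMEM259), which ends 149 bp from RNU6-2, and chr19:893138-893437 (MED16), which ends 47 bp from RNU6-9. They are printed 5′ to 3′ on the minus strand, in lower case with any octamer ATGCAAAT in capitals.
GSTA4: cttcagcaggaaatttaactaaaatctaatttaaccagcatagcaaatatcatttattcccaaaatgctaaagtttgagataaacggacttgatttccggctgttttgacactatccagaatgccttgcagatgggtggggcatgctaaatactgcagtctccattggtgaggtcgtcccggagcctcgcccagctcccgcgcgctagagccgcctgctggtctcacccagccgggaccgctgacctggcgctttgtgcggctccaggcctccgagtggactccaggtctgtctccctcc
TMEM259: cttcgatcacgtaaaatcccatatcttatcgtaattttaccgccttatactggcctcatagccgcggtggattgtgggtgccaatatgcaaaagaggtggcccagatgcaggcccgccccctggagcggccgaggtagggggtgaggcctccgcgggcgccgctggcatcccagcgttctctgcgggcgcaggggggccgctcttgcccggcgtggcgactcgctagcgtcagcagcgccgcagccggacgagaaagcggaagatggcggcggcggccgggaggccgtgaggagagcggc
MED16: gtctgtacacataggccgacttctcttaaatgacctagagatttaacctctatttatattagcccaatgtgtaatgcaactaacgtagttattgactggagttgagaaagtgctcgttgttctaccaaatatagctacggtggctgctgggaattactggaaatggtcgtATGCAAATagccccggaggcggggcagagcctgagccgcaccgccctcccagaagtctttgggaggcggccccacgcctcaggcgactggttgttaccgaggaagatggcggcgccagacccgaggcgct
Both strands were searched for the octamer (ATTTGCAT on the other strand), which 1.77% of 35116 promoter windows of this length hold. The MED16 window held 1, at chr19:893260-893267, 217 bp below RNU6-9, and the other two windows held 0. The octamer lay under the vehicle POLR3A region of RNU6-9 and under POLR3G and H3K27Ac regions in both treatments, and outside the R5020 POLR3A region. A match of letters is a description and does not show that a factor was bound.

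**Figure D1:**
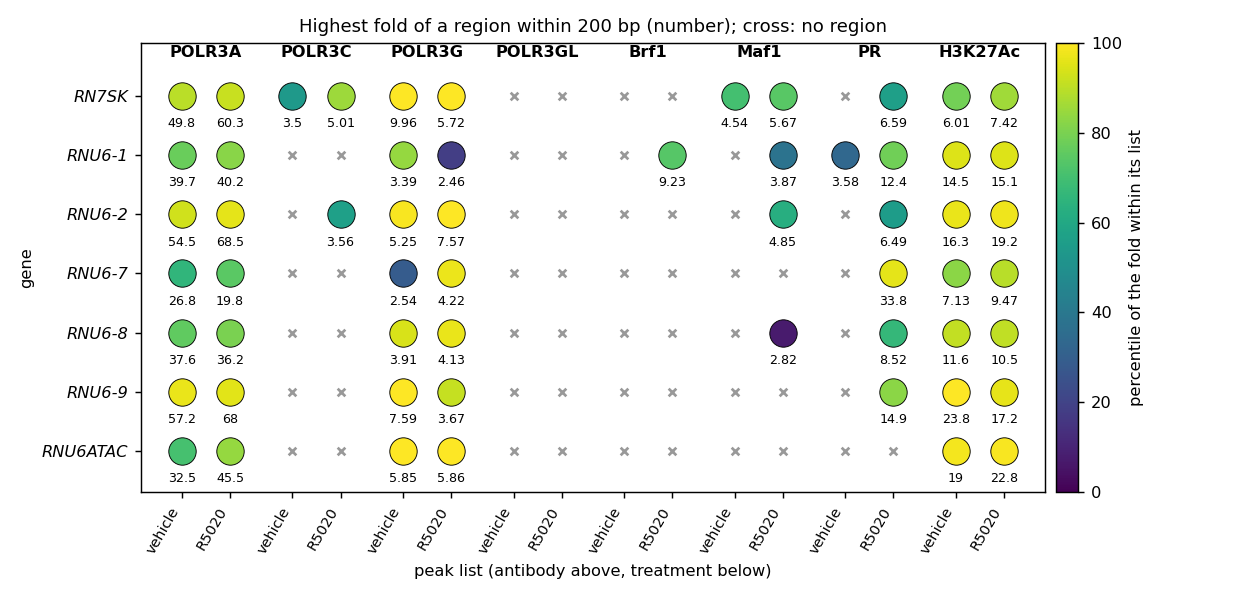
Regions within 200 bp of each of the 7 genes (vertical axis) in the 16 peak lists (horizontal axis, 2 treatments per antibody). A circle marks a region, the number under it is the authors' fold over background, the colour is the percentile of that fold within its list, and a cross marks no region. The POLR3A, POLR3G and H3K27Ac columns are filled for 7 of 7 genes in both treatments, the POLR3GL columns for 0.

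POLR3A, the largest subunit of polymerase III, had a region at 7 of 7 genes with vehicle and at 7 of 7 with R5020 (95% Wilson interval for each share 64.6% to 100%, which covers the counting of genes only). Of all RefSeq genes, 1.22% had one with vehicle and 1.30% with R5020. The shares of all genes, here and below, were not matched for gene length, and a longer gene collects more regions. Every member had exactly 1 POLR3A region within 200 bp in each list, each covered the whole gene, and each had its summit, the point of highest signal, inside the gene. Within 5 kb the shares of all genes were 1.62% and 1.78%, and no member gained a further POLR3A region apart from that of its neighbour at RNU6-7 and RNU6-8.

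The height of a region is given by the fold that the authors deposited, the signal at the summit divided by a background level that the peak caller set, and by its percentile within the list. At RNU6-9 the POLR3A fold was 57.2 with vehicle (percentile 96.5) and 68.0 with R5020 (percentile 95.4). RNU6-2 had 54.5 (92.6) and 68.5 (95.8), and RN7SK had 49.8 (89.5) and 60.3 (91.8). These 3 genes, each with a protein-coding gene start next to it, had the highest POLR3A folds of the 7 in both lists.

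The other 4 members ranked lower. RNU6-1 had a POLR3A fold of 39.7 with vehicle (percentile 77.2) and 40.2 with R5020 (82.0). RNU6-8 had 37.6 (75.7) and 36.2 (80.0). RNU6ATAC, the minor spliceosome gene, had 32.5 (70.5) and 45.5 (84.0). RNU6-7 was lowest in both lists, with 26.8 (65.4) and 19.8 (74.6). The highest POLR3A folds in the lists were 58.0 with vehicle and 71.4 with R5020, so RNU6-9 and RNU6-2 lay close to the top of both. Several tRNA genes shared each of these highest values. Since fold is scaled within each list, the 2 columns of values are given side by side and no change is read from them.

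The POLR3A regions of the members were 503 to 954 bp wide with vehicle (median 707 bp) and 384 to 838 bp wide with R5020 (median 559 bp). The R5020 region was the narrower one at 7 of 7 genes. It was also the narrower one for 86.3% of the 569 vehicle POLR3A regions of the whole list that met 1 R5020 region. The widest regions in both lists were those of RN7SK, the longest gene, with 954 and 838 bp, and the narrowest were those of RNU6-7, with 503 and 384 bp.

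POLR3G, one of a pair of alternative subunits with POLR3GL, had regions at 7 of 7 members in both treatments. The background was high: 26.1% of all genes had a POLR3G region within 200 bp with vehicle and 22.4% with R5020 (within 5 kb, 31.4% and 27.6%). RN7SK had a POLR3G fold of 9.96 with vehicle (percentile 99.95) and 5.72 with R5020 (99.6). RNU6-2 had 5.25 (99.2) and 7.57 (99.8), RNU6-9 had 7.59 (99.9) and 3.67 (91.1), and RNU6ATAC had 5.85 (99.6) and 5.86 (99.7). Within these long lists the regions of those genes and of RNU6-8 ranked near the top in both treatments. RNU6-7 did so with R5020 only and RNU6-1 in neither list. RNU6-1 had 3.39 (84.3) and 2.46 (18.2), RNU6-7 had 2.54 (28.6) and 4.22 (97.1), and RNU6-8 had 3.91 (94.0) and 4.13 (96.5). The summit lay inside the gene at 6 of 7 members in each list, and at RNU6-7 it lay 115 bp outside with vehicle and 36 bp outside with R5020.

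POLR3GL, the alternative to POLR3G, had a region within 5 kb of 0 of 7 members in both treatments (upper 95% Wilson bound 35.4%), against 0.372% of all genes within 200 bp with vehicle and 0.260% with R5020 (within 5 kb, 0.608% and 0.474%). Its lists were weak throughout, with a highest fold of 4.73 with vehicle and 4.84 with R5020. POLR3C, a subunit of the initiation subcomplex, lay at 1 of 7 members with vehicle (1.02% of all genes) and at 2 of 7 with R5020 (1.09%), and the counts were the same within 5 kb (1.54% and 1.62% of all genes). RN7SK had it in both, with a fold of 3.50 (percentile 53.8) and 5.01 (85.3), and RNU6-2 had it with R5020, with a fold of 3.56 (56.5). The R5020 POLR3C region of RNU6-2 is the 1 member call with R5020 and not vehicle for this antibody, against 0.220% of all genes. Its -log10 q was 4.25, so it is lost at a -log10 q of at least 5. Replicates 1 and 2 of R5020 POLR3C are tagged ethanol, so the call cannot be assigned to the treatment. All 3 POLR3C regions had their summit inside the gene.

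Brf1, the TFIIIB subunit of tRNA genes, was found at 0 of 7 members with vehicle (0.845% of all genes) and at 1 of 7 with R5020 (1.45%). The 1 region was at RNU6-1, with a fold of 9.23 (percentile 73.8) and a -log10 q of 22.3. It covered part of the gene, and its summit lay 87 bp outside the gene on the higher side. RNU6-1 was thus called with R5020 and not with vehicle, as were 0.622% of all genes. No other Brf1 region lay within 5 kb of any of the 7 genes in either treatment (1.11% and 2.03% of all genes have one within 5 kb). Under every filter and window tried, the counts for Brf1 stayed at 0 and 1.

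**Figure D2:**
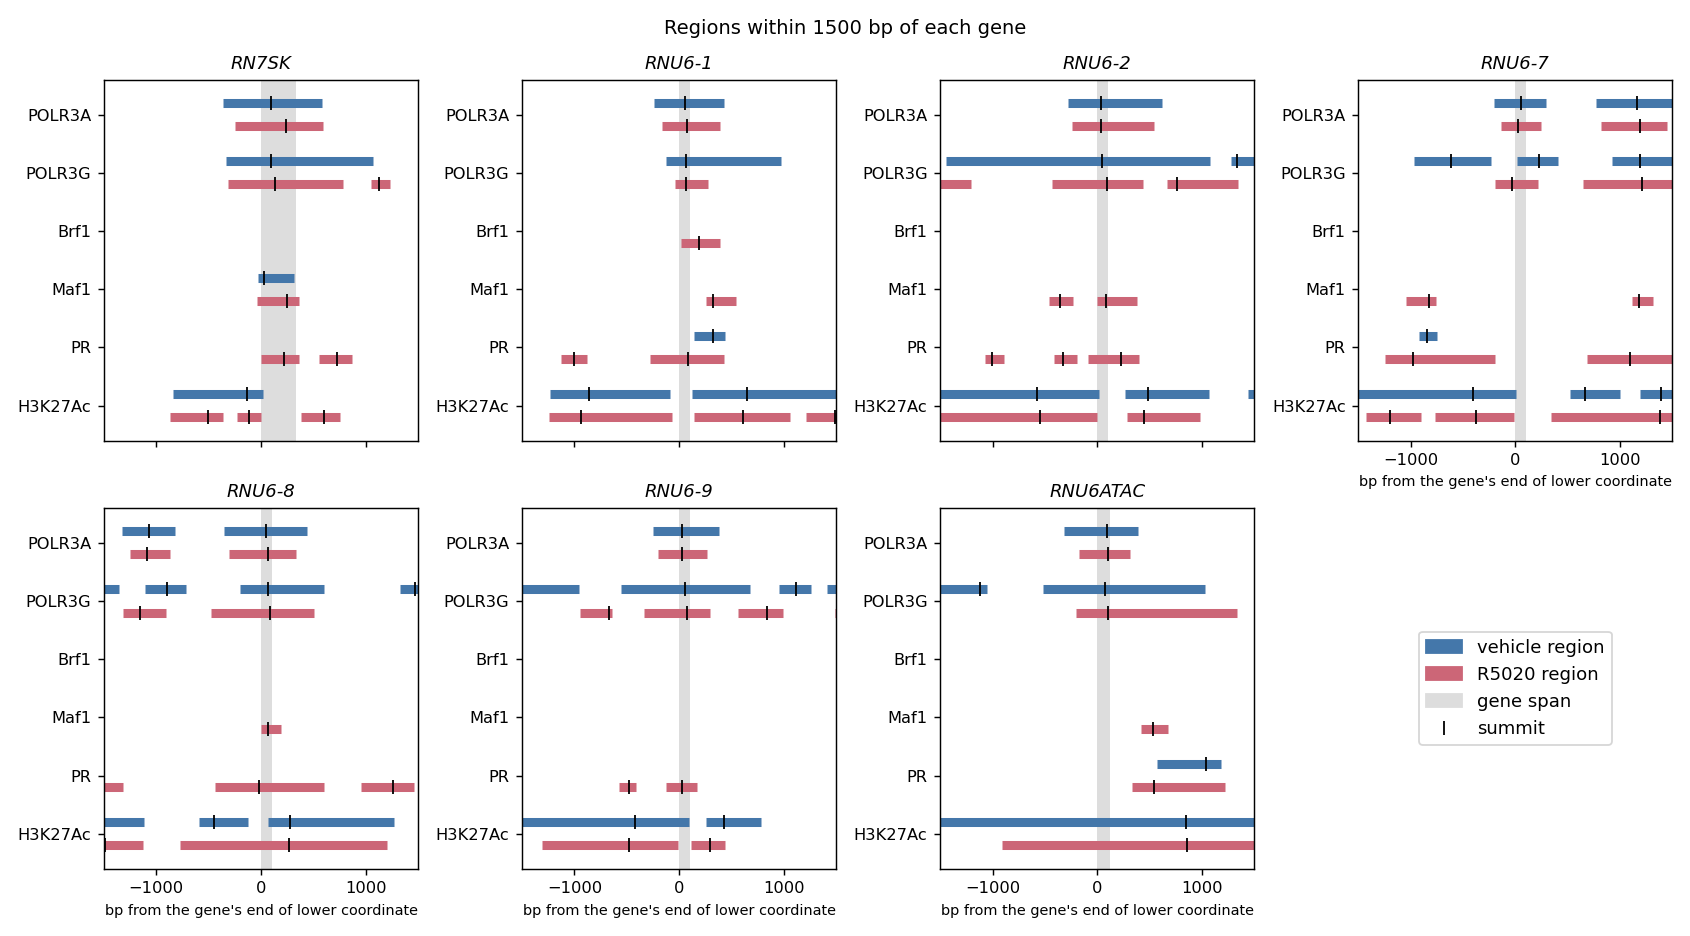
Regions of 6 antibodies around each gene, 1 panel per gene, with the distance from the gene's end of lower coordinate in bp on the horizontal axis and the antibody on the vertical axis. Bars are regions (blue vehicle, red R5020), black ticks are summits and grey is the gene span. The POLR3A bars sit over every gene. H3K27Ac bars begin or end in or near every gene except RNU6ATAC, with vehicle, R5020 or both.

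PR, the receptor that R5020 binds, lay within 200 bp of 1 of 7 members with vehicle (Wilson interval 2.57% to 51.3%) and of 6 of 7 with R5020 (48.7% to 97.4%). The background, not matched for gene length, differed as well: 8.22% of all genes had a PR region with vehicle and 47.3% with R5020. The call with R5020 and not vehicle was made at 5 members (RN7SK, RNU6-2, RNU6-7, RNU6-8 and RNU6-9), against 39.2% of all genes. The R5020 PR list was also far longer, with 173129 regions against 6663. With the 6663 regions of lowest q-value kept in each list, PR lay at 1 member with vehicle and at 0 with R5020. No share of all genes was computed for those shortened lists.

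With vehicle the single PR region was 37 bp above RNU6-1, with a fold of 3.58 (percentile 33.4), and its summit was 218 bp outside the gene. With R5020 RNU6-1 had a PR region over the gene, with a fold of 12.4 (percentile 78.3) and its summit in the gene. RNU6-9 had a fold of 14.9 (82.8) and RN7SK a fold of 6.59 (56.0), both with the summit inside the gene. RNU6-8 had 8.52 (66.7) with the summit 20 bp outside the gene, and RNU6-2 had 6.49 (54.9) with the summit 123 bp outside. PR summits therefore fell inside the gene at 3 of the 6 members with an R5020 region.

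The 200 bp limit decided several of these calls. The highest R5020 PR region near a member, with a fold of 33.8 (percentile 95.8), ended 199 bp below RNU6-7, and its summit was 982 bp from the gene. At RNU6ATAC the nearest R5020 PR region was 203 bp above the gene, just outside the limit, with a fold of 8.65 (67.3). RN7SK had a further R5020 region 226 bp above it with a fold of 12.6, higher than the 6.59 of the region over the gene. RNU6-2 had a further one 197 bp below it with a fold of 2.99. When a region had to overlap the gene, PR lay at 0 members with vehicle and at 5 with R5020. The share of all genes under that rule was not computed.

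Within 5 kb, PR lay at 4 of 7 members with vehicle (11.1% of all genes) and at 7 of 7 with R5020 (65.8%). The vehicle count came from 3 separate regions: that of RNU6-1, 1 region shared by RNU6-7 and RNU6-8 (744 and 1862 bp away, fold 3.73), and 1 region 450 bp above RNU6ATAC (fold 4.41). With R5020 there were 20 separate PR regions within 5 kb of the 7 genes. The vehicle regions near RNU6-7 and RNU6ATAC both overlapped positions that also lay under R5020 PR regions, with folds of 33.8 and 8.65.

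**Figure D3:**
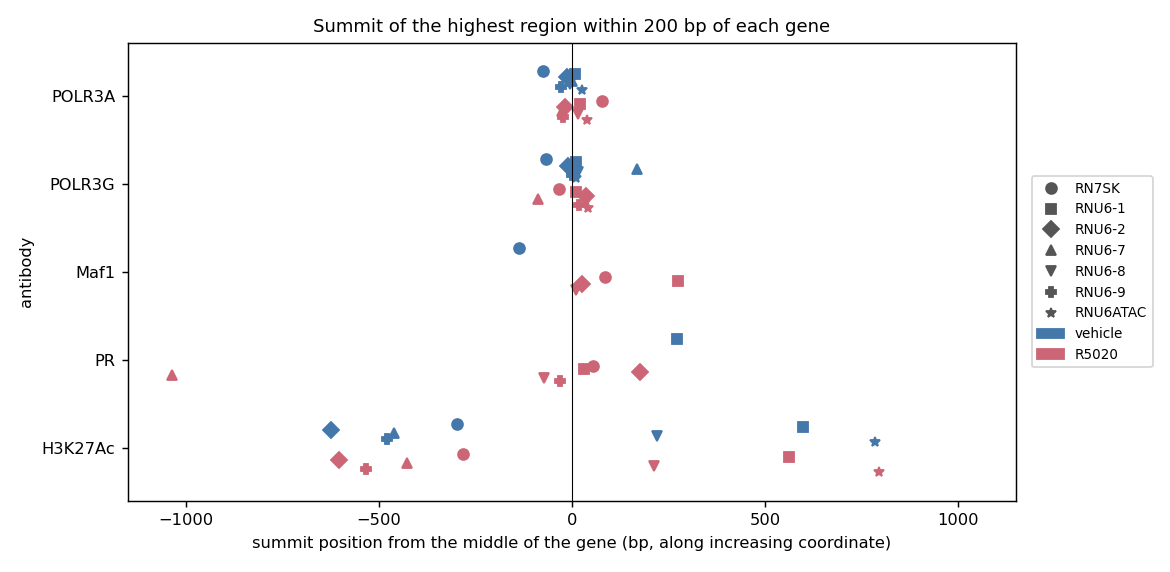
Summit of the highest region within 200 bp of each gene, as distance in bp from the middle of the gene along increasing coordinate (horizontal axis), by antibody (vertical axis). Symbols are genes, blue is vehicle and red is R5020. POLR3A summits cluster at the gene in both treatments, H3K27Ac summits lie 118 to 732 bp outside it, and the R5020 PR summit of RNU6-7 lies 982 bp outside it.

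Maf1, which represses polymerase III when dephosphorylated, lay at 1 of 7 members with vehicle (4.74% of all genes) and at 4 of 7 with R5020 (21.0%). The member with vehicle was RN7SK, with a fold of 4.54 (percentile 70.0), and with R5020 RN7SK had a fold of 5.67 (73.9). The summit was inside the gene in both. RNU6-2 had an R5020 fold of 4.85 (62.8) and RNU6-8 one of 2.82 (7.16), both with the summit in the gene. A further R5020 Maf1 region, 229 bp below RNU6-2 and so outside the 200 bp limit, had a higher fold of 5.38 (70.9). RNU6-1 had an R5020 fold of 3.87 (37.9) in a region 155 bp above the gene.

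The 3 members called with R5020 and not vehicle for Maf1 (RNU6-1, RNU6-2 and RNU6-8) compare with 16.4% of all genes. The R5020 Maf1 list held 22683 regions and the vehicle list 3049. With the 3049 regions of lowest q-value kept in each list, Maf1 lay at 1 member with vehicle and at 0 with R5020, again with no share of all genes computed. Within 5 kb the counts were 1 of 7 with vehicle (7.02% of all genes) and 6 of 7 with R5020 (27.6%). The additional genes were RNU6ATAC, with a region 296 bp above it (fold 4.49), and RNU6-7, with regions 761 and 1012 bp away, the second of them the region over RNU6-8. RNU6-9 had no Maf1 region within 5 kb in either list.

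H3K27Ac lay within 200 bp of 7 of 7 members in both treatments, against 39.3% of all genes with vehicle and 40.2% with R5020 (within 5 kb, 47.2% and 48.6%). The highest fold per gene ran from 6.01 (RN7SK) to 23.8 (RNU6-9) with vehicle and from 7.42 (RN7SK) to 22.8 (RNU6ATAC) with R5020. The H3K27Ac percentiles were 78.7 to 99.7 with vehicle and 85.8 to 98.9 with R5020. RNU6-1 had folds of 14.5 and 15.1, RNU6-2 had 16.3 and 19.2, RNU6-7 had 7.13 and 9.47, and RNU6-8 had 11.6 and 10.5.

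In contrast to POLR3A, the acetylation lay beside the genes. The summit of the highest H3K27Ac region was inside 0 of 7 genes in both treatments, and lay 133 to 723 bp from the gene with vehicle and 118 to 732 bp with R5020. With vehicle, H3K27Ac regions covered 16 bp of RN7SK, 0 bp of RNU6-1, 18 bp of RNU6-2 and 3 bp of RNU6-7. They covered 38 bp of RNU6-8, 99 bp of RNU6-9 and the whole 126 bp of RNU6ATAC. With R5020 they covered 3 bp of RN7SK and of RNU6-2, none of RNU6-1, RNU6-7 and RNU6-9, and the whole of RNU6-8 and RNU6ATAC. RNU6ATAC alone of the 7 genes was fully covered in both lists. The median covered share of a member was 16.8% with vehicle and 0.904% with R5020.

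The gap in acetylation over the gene had a region on each side at RNU6-1 in both treatments, 91 bp below and 12 bp above the gene with vehicle and 69 bp below and 35 bp above with R5020. RNU6-2 had the same arrangement, with a region reaching into the gene from below and another 156 bp above it with vehicle and 181 bp above it with R5020. RNU6-9 had a second region 147 bp above it with vehicle and 8 bp above it with R5020. RN7SK with R5020 had a region reaching into the gene from below and another 50 bp above it. RNU6-8 with vehicle had a region 121 bp below it and another reaching into it from above. At RNU6-7 with R5020 regions lay 12 bp below and 238 bp above the gene. Partial coverage was shared with the 7 other genes that have type 3 promoters (RMRP, RPPH1, the Y RNA genes and TRU-TCA1-1): among those with H3K27Ac within 200 bp, the median covered share was 44.1% with vehicle and 11.9% with R5020. For tRNA genes with such a region it was 100% and 36.1%, and for the 16 polymerase II snRNA genes 100% in both treatments.

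Put together by gene, RN7SK had a region within 200 bp in 11 of the 16 lists, RNU6-1 in 10, RNU6-2 in 9, RNU6-8 in 8, RNU6-7 and RNU6-9 in 7, and RNU6ATAC in 6. The 6 lists of RNU6ATAC were POLR3A, POLR3G and H3K27Ac in both treatments, which all 7 genes had. Of all genes, 1.12% had POLR3A in both treatments, 20.1% POLR3G and 37.1% H3K27Ac. The members thus differed in POLR3C, Brf1, Maf1 and PR only. RN7SK was the only member with POLR3C in both treatments (0.875% of all genes) and with Maf1 in both treatments (4.59%). RNU6-1 was the only one with Brf1 and the only one with PR in both treatments (8.12%).

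Overlap of at least 1 bp with the POLR3A region of the same treatment was counted next. PR overlapped the POLR3A region of 1 of 7 members with vehicle and of 5 of 7 with R5020, against 10.9% and 17.9% of all POLR3A regions. Maf1 overlapped that of 1 and 4 members, against 7.41% and 25.3%. POLR3G overlapped that of 7 and 7 members, against 42.3% and 27.5%, and H3K27Ac likewise 7 and 7, against 42.0% and 31.4%. Brf1 overlapped that of 0 and 1 members, while 50.6% and 63.5% of all POLR3A regions had Brf1. POLR3C overlapped that of 1 and 2 members, against 16.7% and 14.4%. POLR3GL overlapped that of 0 members in both lists, against 0% and 0.955%. The 2 members whose R5020 POLR3A region met no PR region were RNU6-7 and RNU6ATAC, whose nearest PR regions were those at 199 and 203 bp.

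**Figure D4:**
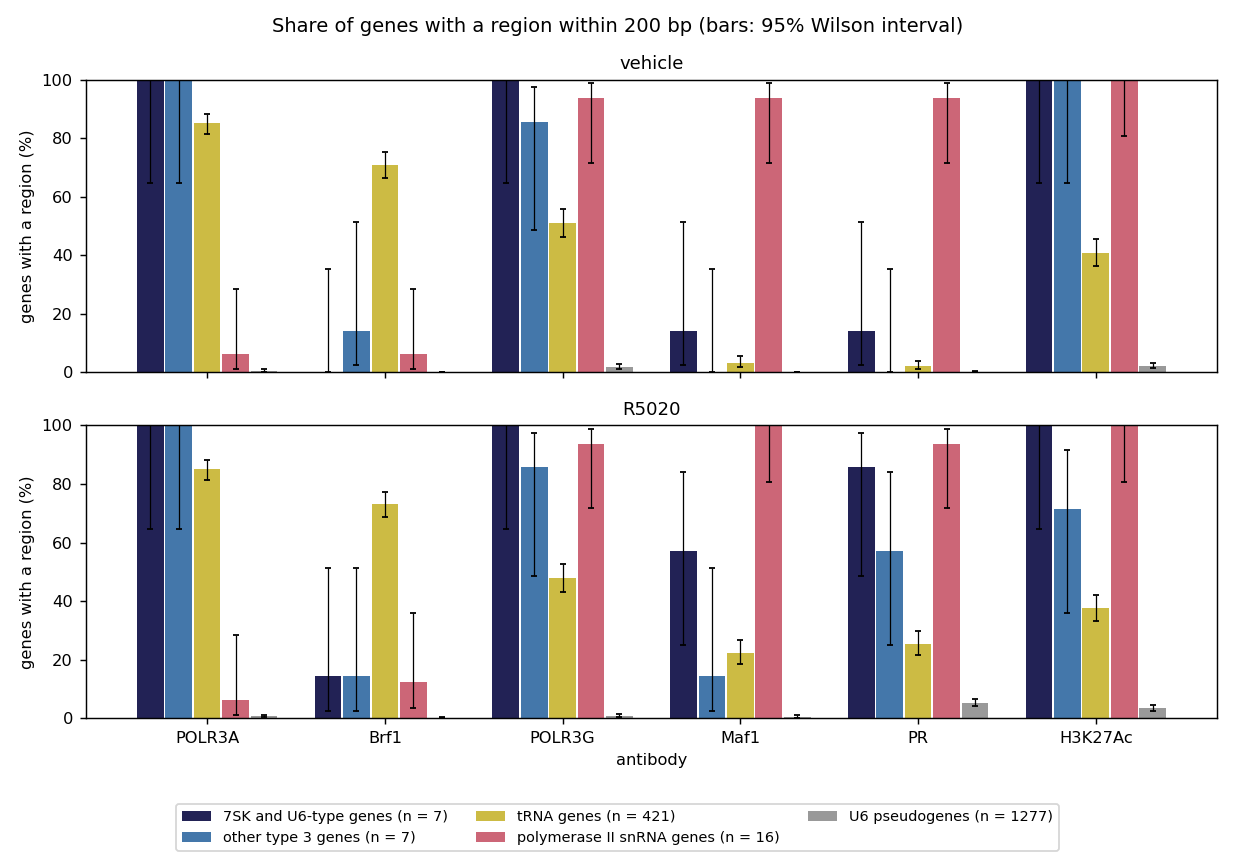
Share of genes with a region within 200 bp (vertical axis, percent) for 6 antibodies (horizontal axis) and 5 groups of genes, with vehicle above and R5020 below. Bars start at 0 and error bars are 95% Wilson intervals of counting. The members resemble the other type 3 genes in POLR3A (7 of 7 in each) and have little Brf1 (0 and 1 of 7), where tRNA genes reach 71.0% and 73.2%.

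Other gene groups were set beside the members by the same count; these are descriptions with no test of the difference. The closest group by promoter was 7 other genes with type 3 promoters: RMRP, RPPH1, RNY1, RNY3, RNY4, RNY5 and the selenocysteine tRNA gene TRU-TCA1-1. They too had POLR3A at 7 of 7 in both treatments and POLR3GL at 0, and had POLR3G at 6 of 7 in both. Brf1 lay at 1 of the 7, TRU-TCA1-1, with folds of 6.14 and 15.1. PR lay at 0 with vehicle and at 4 with R5020 (RMRP 6.54, RPPH1 12.1, RNY1 12.1 and RNY3 16.0), and Maf1 at 0 and 1. H3K27Ac lay at 7 of 7 with vehicle and at 5 of 7 with R5020. Their median POLR3A fold was 56.3 with vehicle and 69.3 with R5020, against 39.7 and 45.5 for the members. Folds near the top of the lists recurred exactly at separate genes, as at RNU6-9 and RNY3 with vehicle, both 57.2. The fold may therefore not separate the highest regions.

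The U6 pseudogenes carry copies of the U6 sequence scattered over the genome, and 1277 of them were in the gene table. POLR3A lay at 7 of the 1277 with vehicle (0.548%) and at 8 with R5020 (0.626%), against 7 of 7 for the U6-type members and RN7SK. The 8 were RNU6-37P, RNU6-6P, RNU6-36P, RNU6-5P, RNU6-4P, RNU6-33P (R5020 only), RNU6-11P and RNU6-3P. Their POLR3A folds were 4.48 to 7.59 with vehicle and 4.68 to 11.1 with R5020, all below the lowest members, RNU6-7 with 26.8 and 19.8. None of the 8 had Brf1 or H3K27Ac in either treatment, and RNU6-37P alone had R5020 PR, whereas 7 of 7 members had H3K27Ac. Over all 1277, H3K27Ac lay at 2.11% with vehicle and 3.37% with R5020, and PR at 0.157% and 5.32%.

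**Figure D5:**
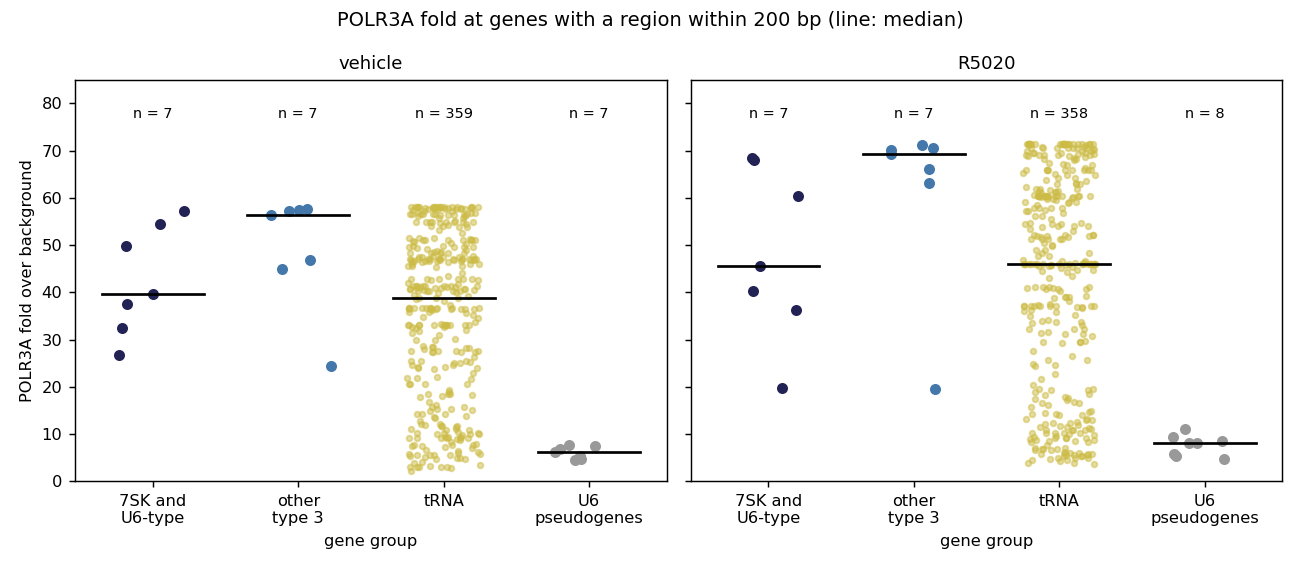
Fold of the highest POLR3A region within 200 bp (vertical axis, linear) for each gene that has one, by gene group (horizontal axis), with vehicle left and R5020 right. Points are genes and lines are medians. The 7 members span 26.8 to 57.2 with vehicle and 19.8 to 68.5 with R5020, above all U6 pseudogenes with a region (4.48 to 7.59 and 4.68 to 11.1).

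The snRNA genes that polymerase II transcribes share the SNAPc-bound element with the members but lack the TATA box. Of 16 such genes (U1, U2, U4, U5, U7, U11, U12 and U4atac), 1 had POLR3A within 200 bp, RNU5B-1, with folds of 11.6 and 10.8. Its POLR3A regions covered 0% of the gene in both treatments. POLR3G lay at 15 of 16 in both treatments, where it lay at 7 of 7 members. POLR3C lay at 5 of 16 with vehicle and 6 of 16 with R5020, against 1 and 2 of 7 members. PR lay at 15 of 16 with vehicle (Wilson interval 71.7% to 98.9%), where it lay at 1 of 7 members (2.57% to 51.3%). With R5020 the PR counts were close, 15 of 16 (71.7% to 98.9%) and 6 of 7 members (48.7% to 97.4%). H3K27Ac lay at 16 of 16 in both treatments, as it did at 7 of 7 members. Maf1 lay at 15 of 16 with vehicle and 16 of 16 with R5020, where the members had 1 and 4. The median Maf1 percentile of those genes was 95.7 with R5020, and that of the 4 members 50.4. Some of these genes are near-identical copies, so their counts are not independent.

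The tRNA genes, 421 in all, had POLR3A at 359 with vehicle and 358 with R5020, with median folds of 38.9 and 46.0 close to those of the members. Brf1 marked the difference: it lay at 299 tRNA genes with vehicle (71.0%, Wilson interval 66.5% to 75.1%) and 308 with R5020 (73.2%, 68.7% to 77.2%), against 0 and 1 of 7 members (upper bounds 35.4% and 51.3%). H3K27Ac lay at 40.9% and 37.5% of tRNA genes, against 7 of 7 members. PR lay at 2.14% with vehicle and 25.4% with R5020.

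Genes for proteins that act on the members were also looked up: 10 of the type 3 transcription machinery and 10 partners of 7SK or U6 RNA. These are longer than the members and a longer gene collects more regions. None of the 20 had POLR3A in either treatment (1.22% and 1.30% of all genes). POLR3G lay at 10 of the 10 machinery genes with vehicle and 9 with R5020, and at 7 of the 10 partners in both. Of all genes, not matched for gene length, 26.1% had POLR3G with vehicle and 22.4% with R5020. In the machinery list PR lay at 1 of 10 genes with vehicle, ZNF143 (fold 3.67), and at 9 of 10 with R5020, all but SNAPC2. The shares of all genes were 8.22% and 47.3%. BRF2, the TFIIIB subunit of these promoters, had 4 R5020 PR regions, the highest with a fold of 7.74. BDP1, a TFIIIB subunit shared with tRNA genes, had 7, the highest with a fold of 37.9. Such regions may lie anywhere along the gene. Maf1 lay at 3 and 7 of the 10, against 4.74% and 21.0% of all genes.

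Among the RNA partners PR lay at 2 of 10 with vehicle, HEXIM1 (fold 3.78) and HEXIM2 (3.34), whose proteins inhibit P-TEFb when bound to 7SK. With R5020 PR lay at 10 of 10. Of all genes, not matched for gene length, 8.22% had PR with vehicle and 47.3% with R5020. The highest R5020 PR fold anywhere along the gene was 16.4 at HEXIM1 (2 regions). It was 36.1 at USB1 (5 regions), the nuclease that trims the U6 3′ end. METTL16, a U6 methyltransferase, had 34.2 (2 regions), and SART3, a U4/U6 assembly factor, had 21.7 (6 regions). LARP7 and MEPCE, the constant 7SK-binding proteins, had 4.11 (1 region) and 4.86 (3 regions). Maf1 lay at 2 of 10 with vehicle (4.74% of all genes) and 5 of 10 with R5020 (21.0%). At HEXIM1 its highest folds were 5.64 and 11.9. H3K27Ac lay at all 10 in both treatments, against 39.3% and 40.2% of all genes.

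Likeness of pattern was measured as the mean absolute difference of fold percentile over the 16 lists, with 0 where no region lay within 200 bp, among genes with POLR3A in either treatment. The highest percentile anywhere along a gene counted, so a long gene could match through regions at separate sites. RNU6-9 was most like CCDC107 (mean difference 2.05 percentile points), RMRP (3.06) and TMEM259 (5.72), where the median over 825 candidates was 31.5. RNU6-8 was most like CCDC107 (3.28), RMRP (3.64) and BORCS6 (3.69). RNU6ATAC was most like RNY5 (2.76), GSTA4 (5.85) and RMRP (6.63). RNU6-2 was most like BORCS6 (8.02), RMRP (8.63) and MED16 (8.73). RMRP, the RNase MRP RNA gene with a type 3 promoter, thus stood among the nearest 3 of 4 members. TMEM259, MED16 and GSTA4 stand in these lists as neighbours that share the regions of RNU6-2, RNU6-9 and RN7SK, and CCDC107 lies beside RMRP.

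The remaining members were compared in the same way. For RNU6-7, HECTD4 (8.97) and OSBPL8 (9.22) were among the nearest 3. RNU6-1 was nearest to CUX2 (10.4), RASAL1 (11.5) and LINC00921 (11.6). HECTD4, OSBPL8, CUX2 and RASAL1 are far longer than the members (CUX2 spans chr12:111034165-111350554), so their regions need not lie at a single site. RN7SK stood farthest from its nearest genes, TMEM259 (17.1), TRP-TGG2-1 (17.8) and TRP-AGG2-4 (17.9), where the median over its candidates was 41.2. The last 2 are proline tRNA genes that lie next to each other.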

How the data were processed

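ChIP-seq of T47D cells was represented by 16 deposited peak lists for 8 antibodies and 2 treatments. Each list stands for 3 libraries, and the 6 input libraries were not used here. Per the submitters' processing notes, cutadapt, Bowtie2 and MACS2 were used with hg38. How replicates were combined, the control, the settings and the treatment of reads that map to several places are not given in the sources used here. The authors deposited for each peak a fold ratio over background, a -log10 q, a score for display and a summit offset. Fold and -log10 q served to describe and filter the peaks of a single list and to rank them there.

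Peaks on the autosomes, X and Y were set against RefSeq gene spans of GRCh38.p14, the assembly of the stated build. A gene counted as having a region at a distance of at most 200 bp, or 5 kb where stated. Percentiles are ranks of fold within a list. Wilson intervals (95%) cover the counting of genes only. Depth is unknown, and with 1 list per group no test was made. The search was checked on simulated regions. Python 3.11.15, pandas 2.3.3, numpy 2.4.6, scipy 1.17.1 and matplotlib 3.10.9 were used.

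All 7 members are described. Genes most like a member were the 3 with the smallest mean percentile difference over 16 lists, beyond 5 kb of it; 1 such gene is not reported here. The members and gene lists were chosen with earlier results of these data known. Alternatives were a -log10 q or a fold of at least 5, equal numbers of top regions, other windows and stricter overlaps.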

Additional observations from a re-analysis of the deposited data

How the results depend on the processing

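The count of 7 members with POLR3A held in both treatments under every filter and window tried. A fold of at least 5 left POLR3C at 0 members with vehicle and 1 with R5020, POLR3G at 4 and 3, and vehicle Maf1 and PR at 0, within 200 bp and within 5 kb alike. R5020 Maf1 then lay at 1 member within 200 bp and at 2 within 5 kb. In both treatments at once that filter left 0 members with POLR3C, Maf1 or PR and 3 with POLR3G. For overlap with POLR3A regions it gave 0 (POLR3C, Maf1, PR) and 4 (POLR3G) with vehicle, and 1 (POLR3C), 3 (POLR3G) and 2 (Maf1) with R5020.

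A -log10 q of at least 5 left R5020 POLR3C at 1 member by each count. That filter also left POLR3G at 6 members within 200 bp in both treatments. R5020 Maf1 then lay at 3 members within 200 bp and at 4 within 5 kb. Other small shifts are not listed here. Equal numbers of top regions left R5020 PR and R5020 Maf1 at 0 by each count. With overlap of the gene span, PR lay at 0 members with vehicle and in both treatments, and H3K27Ac at 4 with R5020 and in both. Within 1 kb, PR lay at 3 with vehicle and in both. When vehicle and R5020 regions had to share 50% of both, 4 members kept POLR3G and 0 kept PR. With 50% of both regions required to overlap POLR3A, the vehicle counts were 0 for POLR3C, Maf1, PR and H3K27Ac, and the R5020 counts 1 for POLR3C and 0 for Maf1 and H3K27Ac. The cause of these shifts was not tested, beyond the stricter filters keeping fewer regions.

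In the comparison groups, a -log10 q of at least 5 left POLR3C at 0% of other type 3 genes and Brf1 at 0% of polymerase II snRNA genes with vehicle. U6 pseudogenes then had POLR3G at 0.313% with vehicle and 0.157% with R5020, and R5020 H3K27Ac at 2.04%. tRNA genes had POLR3C at 19.7% and 23.0%, vehicle POLR3G at 45.4%, R5020 POLR3GL at 0.475%, Maf1 at 1.19% and 15.2%, and vehicle PR at 0.950%.

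No paired analysis was possible because the lists carry no replicate numbers, and no alternative that leaves out a replicate was run. Unknown depth limits every count that differs between lists of unequal length. Shares of all RefSeq genes were computed only for the full lists, within 200 bp and within 5 kb.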
